A study of Mus musculus with 4 samples.

Results

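The genes described here are 9 that encode parts of the contractile unit of striated muscle and are known mainly from developing or regenerating fibres. They were chosen by symbol from the table of deposited expression values, which held 24328 gene symbols, and all 9 were present. They are the actins Actc1 and Acta1, the myosin heavy chains Myh3 and Myh8, the myosin light chain Myl4, the troponin subunits Tnnt2 and Tnni1, the myosin-binding protein Mybph and the myosin light chain kinase Mylk2. Polyadenylated RNA was sequenced from satellite cells, the muscle stem cells, of mice perfused with paraformaldehyde. The YFP group (2 libraries) came from Pax7CreERT2/+; ROSA26YFP/+ mice 7 months old. The DEK group (2 libraries) came from Pax7CreERT2/+; H11DEK-EGFP/+ mice 4.5 months old, whose alleles name a DEK-EGFP transgene at the H11 locus; Dek is a chromatin protein. All animals carried the tamoxifen-inducible Cre allele driven from Pax7, a gene of satellite cells, and age, reporter and transgene locus cannot be told apart from the DEK transgene in any difference given here.

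The sarcomere is built from thin filaments of actin, thick filaments of myosin, and the troponin complex that makes their contact depend on calcium. Vertebrates hold several genes for each of these parts, and a muscle fibre changes which copies it uses as it matures. Embryonic and perinatal myosins, cardiac actin and cardiac troponin T are used by young and regenerating fibres and are later replaced by adult forms. A resting satellite cell makes no sarcomere. Its descendants make sarcomere proteins as they differentiate, a stage at which Myog, a transcription factor of terminal muscle differentiation, is on. The name of the set fits its genes unevenly, since Acta1 is the main actin of adult skeletal fibres and Mylk2 the kinase of adult, mainly fast, muscle.

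The values are read as FPKM (a unit inferred from the numbers), fragments scaled by transcript length and library size, so that levels of different genes can be set side by side. The column totals lay between 541183 and 545123 FPKM. The ribosomal RNA precursor Rn45s took 5.15% to 15.7% of them, more in both YFP libraries than in either DEK library. Dek itself was found at 512 and 504 FPKM in YFP (replicates 1, then 2) and at 3196 and 1639.5 FPKM in DEK (same order). All 12 satellite cell markers listed, such as Pax7 and the cadherin Cdh15, were present in every library. By limma 0 of 12 passed at an adjusted p under 0.05. At an unadjusted p under 0.05, 5 of 12 were higher in DEK, against 16.9% of all tested genes, and 0 were lower, against 12.2%. Of 10 markers that define heart muscle cells, 5 were at 0 in all libraries, among them the transcription factors Nkx2-5, Gata4 and Tbx5, and the summed level of the 10 was 0.272 to 1.36 FPKM, so that Actc1, Tnnt2 and Myl4 were measured where the heart programme was at or near 0.

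Promoter sequences were available for 8 of the 9 genes, all but Mylk2, in RefSeq's GRCm38.p6 annotation, which is a later build than the mm9 assembly named for the deposited values. The 250 bases before the listed start are shown for the actins, a paralog pair with unlike changes, and for the developmental myosins, which lie in 1 gene cluster. Capitals mark a CArG box (the site of serum response factor), a MEF2 box, an E-box (CANNTG, the site of the myogenic factors) or an MCAT box (CATTCC, the site of TEAD factors), each searched on both strands. Actc1 lies at chr2:114052876-114053125 and Acta1 at chr8:123894776-123895025, both on the minus strand. Myh3 lies at chr11:67078050-67078299 and Myh8 at chr11:67276874-67277123, both on the plus strand.
Actc1: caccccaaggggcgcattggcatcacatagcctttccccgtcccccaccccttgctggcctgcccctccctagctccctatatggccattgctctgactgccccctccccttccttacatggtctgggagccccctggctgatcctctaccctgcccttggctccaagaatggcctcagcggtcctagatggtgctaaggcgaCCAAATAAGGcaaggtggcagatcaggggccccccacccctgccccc
Acta1: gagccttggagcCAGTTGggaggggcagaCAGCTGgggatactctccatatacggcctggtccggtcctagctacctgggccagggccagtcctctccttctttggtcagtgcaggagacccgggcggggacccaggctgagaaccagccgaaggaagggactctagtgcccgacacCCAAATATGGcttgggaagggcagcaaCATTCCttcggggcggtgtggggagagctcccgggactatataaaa
Myh3: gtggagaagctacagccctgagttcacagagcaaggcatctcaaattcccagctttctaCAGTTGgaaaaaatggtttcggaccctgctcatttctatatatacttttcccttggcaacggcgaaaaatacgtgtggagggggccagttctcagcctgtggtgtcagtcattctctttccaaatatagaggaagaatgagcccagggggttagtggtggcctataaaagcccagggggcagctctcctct
Myh8: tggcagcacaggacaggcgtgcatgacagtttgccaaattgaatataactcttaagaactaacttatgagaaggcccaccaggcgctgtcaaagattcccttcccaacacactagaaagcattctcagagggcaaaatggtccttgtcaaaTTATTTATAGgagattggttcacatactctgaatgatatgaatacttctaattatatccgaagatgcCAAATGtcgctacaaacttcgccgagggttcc
The actin promoters each held a CArG box, which was found in 1.47% of all 32851 promoter windows of that length and in none of the other members' windows. Its match began 47 bases before the start of Actc1 and 73 bases before that of Acta1. A MEF2 box was found in Myh8 alone among the members and in 2.92% of all windows. Within it lay a TATA box (TATAAA) on the other strand. TATA boxes were also found in Acta1, Mybph and Myh3, and in 12.4% of all windows. E-boxes were found in 6 of the 8 genes, Acta1, Mybph, Myh3, Myh8, Tnni1 and Tnnt2, and in 66.2% of all windows, while MCAT boxes were found in Acta1, Mybph and Tnnt2 and in 12.6% of all windows. The 8 genes had 10 windows, with more than 1 for Tnni1 and Tnnt2, and a gene counted if any of its windows held a match. The percentages are of windows, so they are not in the same unit as the counts of genes. The MCAT box of Tnnt2 was in 1 of its windows only. Myl4 held no match to any of these motifs. These are matches of letters, not measured binding.

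Of the 9 genes, 8 had both DEK values below both YFP values, which held for 21.4% of all genes with a value above 0. The exception was Tnni1. The genes were chosen with earlier results of these data known, so counts set beside such shares describe the set and do not test it. Testing by limma was limited to genes that reached 1 FPKM in at least 2 libraries, and 6 of the 9 did. Both DEK values were the lower ones in 6 of these 6, against 26.9% of tested genes, and the higher ones in 0, against 34%. Of these 6, Actc1, Myh8 and Myl4 fell at a Benjamini-Hochberg adjusted p under 0.05 and none rose, while 3.21% of all tested genes fell and 4.57% rose. Myh8 reached the filter through its YFP values alone, so it had to differ and to be lower in DEK. It is part of every count over the 6 given here, and without it 2 of 5 fell. The median log2 fold change of the 6 was -1.18, against 0.05 for all tested genes, and that of the 5 without Myh8 was -1.04. For the 6 it was -1.37 for DEK replicate 1 and -1.18 for DEK replicate 2 when each was set against the YFP mean. On leaving out each library in turn, with the same genes tested, limma called 0 members (YFP replicate 1 out), 0 (YFP replicate 2 out), 0 (DEK replicate 1 out) and 1, Actc1 (DEK replicate 2 out). In the same order these fits called 115, 69, 0 and 184 of all 12179 genes. At an unadjusted p under 0.05, 4, 4, 5 and 5 of the 6 members were lower, against 9.10%, 8.40%, 6.63% and 11.9% of all tested genes. When the low filter was instead set on the 3 libraries kept, 0, 0, 2 and 3 members were called.

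**Figure D1:**
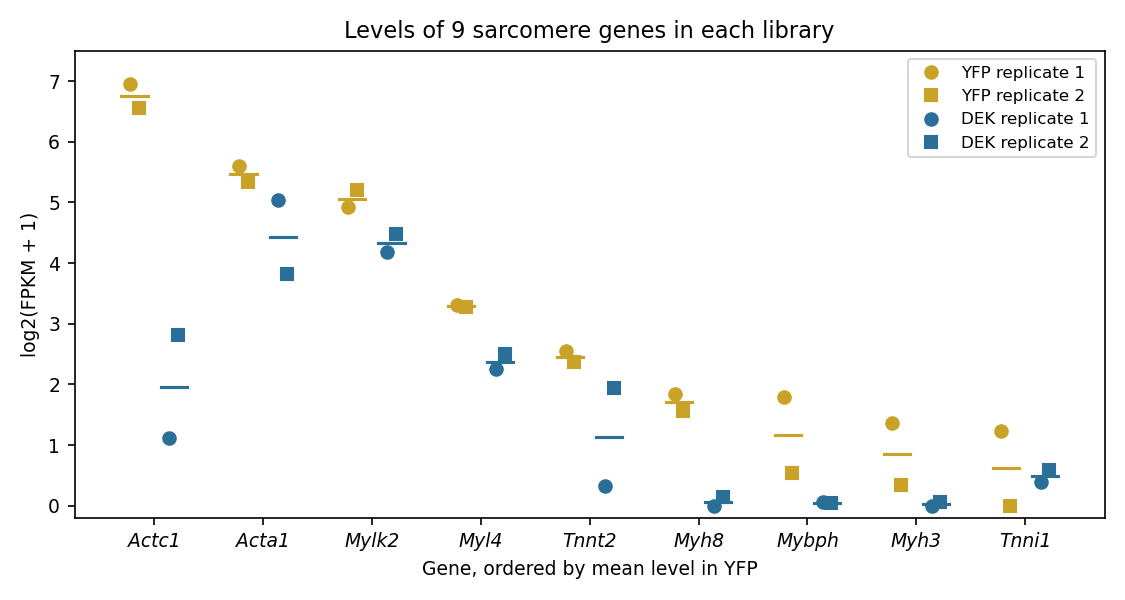
Level of each of the 9 genes as log2(FPKM + 1) in every library, with YFP in yellow and DEK in blue, circles for replicate 1 and squares for replicate 2; short lines are group means. In 8 genes both blue points lie below both yellow ones, the gap is widest in Actc1, and in Tnni1 the groups overlap.

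Actc1 encodes cardiac alpha actin, the thin filament actin of the heart and of young skeletal fibres. It was found at 123 and 93.1 FPKM in YFP (replicates 1, then 2) and at 1.16 and 6.01 FPKM in DEK (same order). In the YFP libraries it stood above 97.4% and 96.6% of all genes in the table, and in the DEK libraries above 52.1% and 66.5%. The group means differed 30.2-fold, and the log2 fold change of -4.80 (SE 0.52, limma adjusted p = 0.00931) was the lowest among the 12179 genes tested. That rank holds on the log2(FPKM + 1) scale: with 0.1 added Actc1 (-5.27) had rank 6 from the lowest, behind genes such as Pthlh (-6.58), and it had rank 3 without DEK replicate 1. With YFP replicate 1 left out the adjusted p was 0.0823, with YFP replicate 2 out 0.0882 and with DEK replicate 1 out 0.0798, so these ended the call over the same genes, while with DEK replicate 2 out it was 0.0350. When the low filter was instead set on the 3 libraries kept, it was 0.0686 and 0.0744 without YFP replicates 1 and 2, and 0.00143 and 0.000115 without DEK replicates 1 and 2, so the call then held without either DEK library. The fitted change was -3.95 without DEK replicate 1 and -5.64 without DEK replicate 2.

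Acta1, the alpha actin of adult skeletal muscle, was found at 47.4 and 39.5 FPKM with YFP against 32.0 and 13.1 with DEK, in replicate order. Both DEK values were below both YFP values, but the DEK libraries were farther from each other than DEK replicate 1 was from YFP. Its log2 fold change of -1.04 (SE 0.39) did not pass (limma adjusted p = 0.146), and it ran from -0.43 without DEK replicate 2 to -1.65 without DEK replicate 1. The ratio of Actc1 to Acta1 in FPKM was 2.60 and 2.36 in YFP and 0.0364 and 0.458 in DEK, so the libraries with more Actc1 than Acta1 were the YFP ones. The striated and smooth actin genes are close in coding sequence, and how the authors assigned shared reads is not stated. In DEK replicate 1 Actc1 was at 1.16 FPKM beside 32.0 FPKM of Acta1 and 74.2 FPKM of the smooth muscle actin Acta2.

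Myh8 encodes the perinatal myosin heavy chain and Myh3 the embryonic one, which comes first in development. Myh8 was at 2.58 and 1.96 FPKM in the YFP libraries, and was listed at 0 in DEK replicate 1 and at 0.101 FPKM in DEK replicate 2. It fell by limma (adjusted p = 0.0173); no fold change is given because 1 DEK value is 0. Over the same genes no omission of a library kept the call, with adjusted p = 0.0802 and 0.0780 on leaving out YFP replicates 1 and 2, and 0.133 and 0.0827 on leaving out DEK replicates 1 and 2. With the low filter on the remaining libraries the call held without DEK replicate 2 (0.0477) but not without DEK replicate 1, and Myh8 was not tested without either YFP library. Myh3 did not reach the filter. It was found at 1.56 and 0.264 FPKM with YFP against 0 and 0.0386 with DEK. Both YFP values were above both DEK values, but the YFP values differed from each other by more than the lower one differed from DEK.

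The adult fast myosin genes Myh1, Myh2 and Myh4 lie between Myh3 and Myh8 in the same cluster on chromosome 11, per RefSeq's GRCm38.p6 gene order. None of the 3 reached the filter. Myh1 was found at 1.88 and 0.823 FPKM with YFP against 0.326 and 0.395 with DEK. Myh4, the myosin of the fastest fibres, went the other way, with 0 and 0.0861 FPKM in YFP and 1.53 and 0.346 FPKM in DEK. The low values of neighbouring paralogs with long shared coding stretches are uncertain for each gene taken singly.

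Myl4 encodes an essential myosin light chain of the atria and of embryonic skeletal muscle. It was found at 8.89 and 8.67 FPKM with YFP against 3.76 and 4.64 with DEK. The replicates of each group lay close together and the groups were well apart, with means 2.09-fold higher in YFP. On the log2 scale it fell by 0.92 (SE 0.19; adjusted p = 0.0431 by limma). Under either low filter no omission of a library kept the call, with adjusted p = 0.129 and 0.169 on leaving out YFP replicates 1 and 2, and 0.229 and 0.128 on leaving out DEK replicates 1 and 2 over the same genes. In RefSeq's annotation Myl4 overlaps Cdc27, a subunit of the anaphase-promoting complex, which was found at 8.48 and 8.08 FPKM with YFP against 8.30 and 7.54 with DEK (log2 fold change -0.06, limma adjusted p = 0.850).

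Mylk2 encodes the kinase that phosphorylates the regulatory light chain of skeletal muscle myosin. It was found at 29.4 and 35.7 FPKM with YFP against 17.2 and 21.3 with DEK. The groups did not overlap, and the log2 fold change of -0.73 (SE 0.18) missed the threshold (limma adjusted p = 0.0651). Mybph encodes a myosin-binding protein related to the C proteins of the thick filament, and it did not reach the filter. It was found at 2.48 and 0.458 FPKM with YFP against 0.0445 and 0.0289 with DEK. Its group means differed 40.0-fold, yet the YFP libraries themselves were far apart.

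Tnnt2 encodes cardiac troponin T, which ties the troponin complex to tropomyosin. It was found at 4.85 and 4.15 FPKM with YFP against 0.246 and 2.83 with DEK. Only DEK replicate 1 was far from the YFP level. The log2 fold change of -1.33 (SE 0.51) did not pass (limma adjusted p = 0.153), and it was -0.52 without DEK replicate 1 and -2.14 without DEK replicate 2. Tnni1, the inhibitory troponin subunit of slow fibres, was at 1.35 FPKM in YFP replicate 1, listed at 0 in YFP replicate 2, and at 0.314 and 0.510 FPKM in DEK. Its groups overlapped, with the highest and the lowest value both in YFP.

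In the YFP libraries the levels per length ran from Actc1 (mean 108 FPKM) through Acta1 (43.5), Mylk2 (32.6), Myl4 (8.78), Tnnt2 (4.50), Myh8 (2.27), Mybph (1.47) and Myh3 (0.914) to Tnni1 (0.673). The ranges of the first 6 did not overlap each other, while Myh8, Mybph and Myh3 each overlapped the next in rank. In the DEK libraries Acta1 came first (mean 22.5 FPKM), overlapping Mylk2 (19.2). Actc1 had rank 4 there (3.58 FPKM) and overlapped both Myl4 (4.20) and Tnnt2 (1.54). Actc1 made up 55.6% and 50.6% of the summed FPKM of the 9 genes in YFP and 2.13% and 12.4% in DEK. That sum was 222 and 184 FPKM in YFP and 54.7 and 48.6 FPKM in DEK, and without Actc1 it was 98.5 and 90.7 FPKM against 53.5 and 42.5 FPKM.

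A measure that does not depend on library scaling is the share of a paralog group's summed FPKM held by chosen genes of the set. In the actins the partner, Acta1, is itself in the set. For the striated alpha actins Actc1 held 71.2% ± 1.43 in YFP and 17.5% ± 19.7 in DEK (SD, n = 2 each). The DEK libraries were far apart, the first at 3.51% and the second at 31.4%. Myh3 and Myh8 together held 65.2% ± 1.88 of the sarcomeric myosin heavy chains (with Myh1, Myh2, Myh4 and Myh7) in YFP, and 0% and 12.1% in the DEK replicates, though the whole group summed to only 1.16 to 6.49 FPKM. Myl4 held 61.4% ± 0.498 of the essential light chains (with Myl1 and Myl3) in YFP, and 22.1% and 51.5% in the DEK replicates. The same order of libraries was seen for Tnnt2 among the troponin T genes, with 16.5% ± 0.664 in YFP and 0.422% and 6.80% in DEK. In each of these 4 groups DEK replicate 1 was the lowest library and DEK replicate 2 lay between it and YFP. These shares also depend on the partners. The partners of Myl4 summed to 5.67 and 5.37 FPKM in YFP and 13.2 and 4.37 FPKM in DEK. Those of Tnnt2 summed to 25.5 and 20.4 FPKM in YFP and 58.0 and 38.7 FPKM in DEK. The actin partner was lower in DEK, and the partner sums of the myosin heavy chains overlapped.

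Mylk2 held 80.4% ± 0.294 of the myosin light chain kinase genes (with Mylk and Mylk3) in YFP and 64.5% ± 0.312 in DEK (SD, n = 2 each), so here the DEK libraries were alike. Mybph held 9.06% and 1.73% of the myosin-binding protein genes in YFP and 0.136% and 0.0963% in DEK. Tnni1 held 60.8% and 0% of the troponin I genes in YFP and 13.0% and 26.4% in DEK, the only one of the 7 groups whose libraries overlapped. In the other 6 the two-sided exact permutation test gave p = 0.333, the smallest that 2 against 2 libraries allow, so no difference could pass and p-values were not adjusted.

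**Figure D2:**
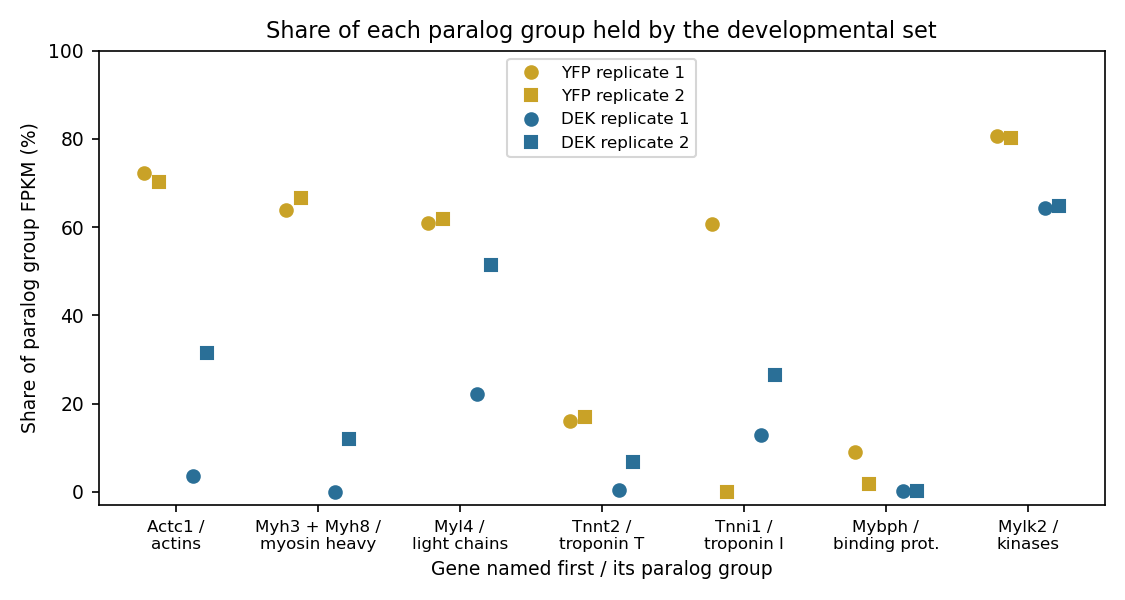
Share in percent of each paralog group's summed FPKM held by the gene or genes named first, in every library (YFP in yellow, DEK in blue, circles replicate 1, squares replicate 2). The DEK points lie below the YFP points in all groups but troponin I, and in the actins, myosin heavy chains, light chains and troponin T DEK replicate 1 is lowest.

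Sarcomere genes outside the set were divided into 3 lists. Among 18 slow-fibre and cardiac sarcomere genes, 7 reached the filter, 0 fell, 1 rose by limma, and the median log2 fold change was 0.26; at an unadjusted p under 0.05, 0 were lower and 3 higher. The gene that rose was Ankrd1, a stretch-responsive protein bound to titin, with YFP averaging 16.7 ± 3.76 and DEK 44.3 ± 3.78 FPKM (SD, n = 2), a change of 1.37 on the log2 scale (SE 0.19; adjusted p = 0.0182). Slow troponin T Tnnt1, by contrast with Tnnt2, was found at 20.0 and 15.1 FPKM with YFP against 29.1 and 30.2 with DEK (limma adjusted p = 0.0638). For Ankrd1 no omission of a library kept the call over the same genes, with adjusted p = 0.0606 and 0.109 on leaving out YFP replicates 1 and 2, and 0.149 and 0.117 on leaving out DEK replicates 1 and 2. With the low filter on the remaining libraries only leaving out YFP replicate 2 ended it (0.0954), and the other adjusted p were 0.0305 to 0.0477.

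Among 23 fast-fibre and adult sarcomere genes, 12 reached the filter, 1 fell and 1 rose by limma, and the median log2 fold change was 0.38. Actn3, the alpha-actinin of the Z-disc in fast fibres, rose by 2.37 on the log2 scale (SE 0.14; adjusted p = 0.00310), YFP averaging 28.8 ± 1.88 and DEK 153 ± 6.62 FPKM (SD, n = 2). Ttn, the giant spring protein that spans the sarcomere, fell by 2.17 (SE 0.18; adjusted p = 0.00436), with averages of 19.7 ± 1.86 and 3.58 ± 0.339 FPKM. The replicates of both genes lay close together in each group. Over the same genes, leaving out DEK replicate 1 ended both calls (adjusted p = 0.0798 for Actn3 and 0.0909 for Ttn); Ttn also lost its call without YFP replicate 2 (0.0583) and DEK replicate 2 (0.0526). With the low filter on the remaining libraries both genes kept their calls without each library in turn, at adjusted p up to 0.0293 for Actn3 and 0.0442 for Ttn.

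Among 18 sarcomere assembly and turnover genes, 7 reached the filter, 2 fell and 0 rose by limma, with 4 lower and 0 higher at an unadjusted p under 0.05, and the median log2 fold change was -0.81. Both genes that fell, Tmod1 and Klhl41, were under 1 FPKM in both DEK libraries and reached the filter through YFP alone, so they had to differ. Tmod1, which caps the slow-growing end of actin filaments, averaged 8.43 ± 0.308 FPKM with YFP and 0.760 ± 0.0199 with DEK, and fell by 2.42 on the log2 scale (SE 0.19; adjusted p = 0.00405). Klhl41, a protein that stabilises nebulin, went from 1.69 ± 0.0214 to 0.207 ± 0.153 FPKM (adjusted p = 0.0374). For Klhl41 no omission of a library kept the call over the same genes, with adjusted p = 0.105 and 0.144 on leaving out YFP replicates 1 and 2, and 0.167 and 0.0910 on leaving out DEK replicates 1 and 2. Tmod1 lost it there without DEK replicate 1 (0.0909) and DEK replicate 2 (0.0537), and kept it without either under the low filter on the remaining libraries (0.0127 and 0.00635). Beside these, Stac3, which couples excitation to contraction, was found at 2.36 and 2.35 FPKM with YFP against 0.767 and 1.01 with DEK (adjusted p = 0.0657). Of the 6 tested genes of the developmental set, 6 had negative log2 fold changes. In these lists 3 of 7, 5 of 12 and 5 of 7 did, in the order given, and 5520 of 12179 among all tested genes. Genes that reached the filter through 1 group alone had their sign fixed by it. These were Myh8 in the set, Actn2 in the slow-fibre list, and Tmod1, Klhl41 and Trim55 in the assembly list, all negative. In the fast-fibre list they were Myom1 and Ldb3, both positive. No test was made of these counts.

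**Figure D3:**
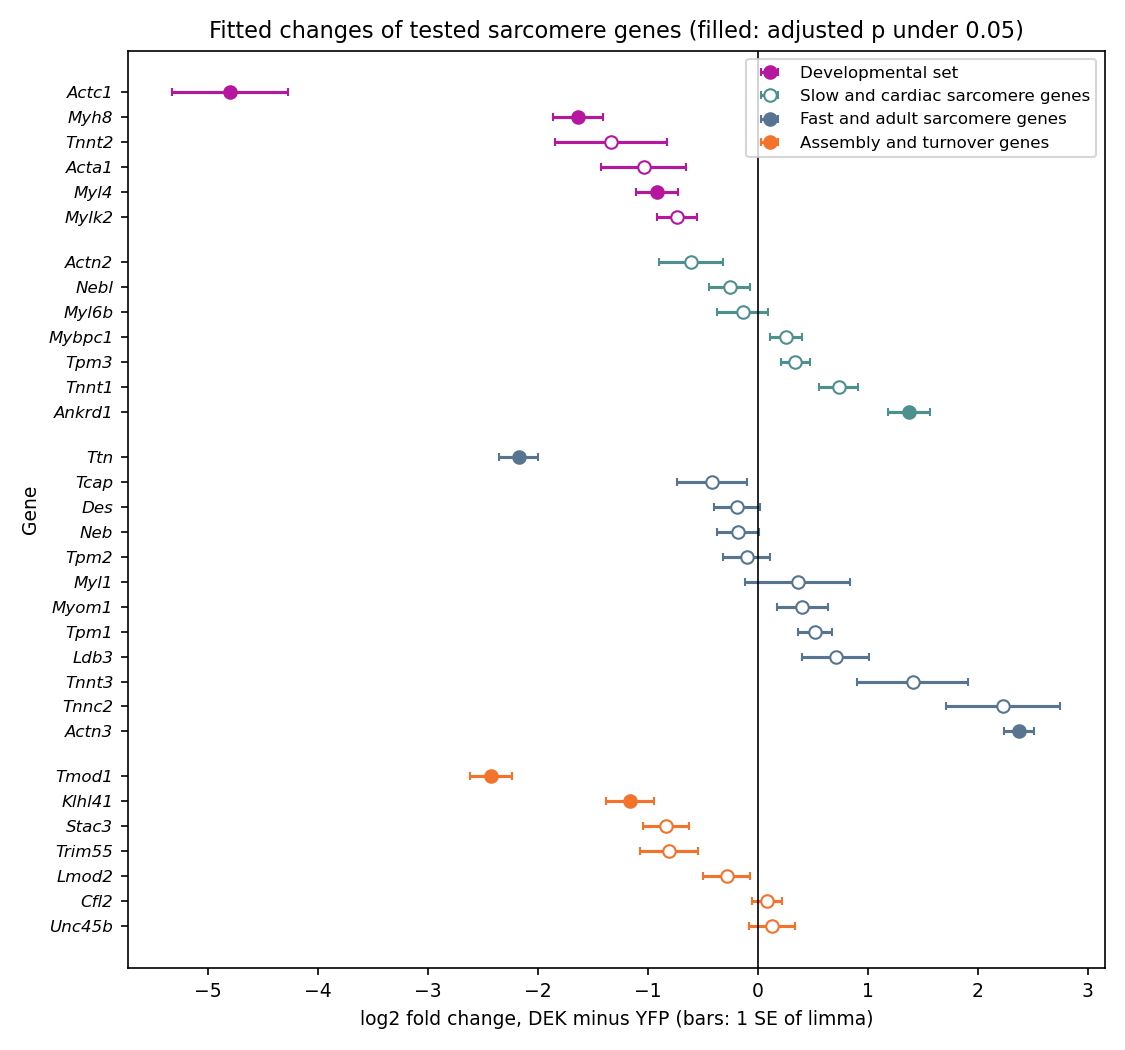
Fitted log2 fold change (DEK minus YFP) with 1 SE from limma for the tested genes of the developmental set and of the 3 other sarcomere lists; filled points have an adjusted p under 0.05, and the position of Myh8 depends on the added 1. All 6 genes of the developmental set lie left of 0, where the filter placed Myh8. Fast and adult genes lie on both sides, from Ttn at -2.17 to Actn3 at 2.37.

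The DEK libraries differed from each other in some fibre genes. Among tested fast-fibre and adult genes, Tnnt3, Tnnc2, Myl1, Tcap, Neb, Myom1 and Ldb3 were higher in DEK replicate 1 than in replicate 2. The others, Actn3, Tpm1, Tpm2, Ttn and Des, were higher in DEK replicate 2. Tnnt3, the troponin T of fast fibres, was at 5.48 and 5.27 FPKM in YFP, at 28.9 FPKM in DEK replicate 1 and at 8.55 FPKM in DEK replicate 2 (log2 fold change 1.41, SE 0.50, limma adjusted p = 0.135). Tnnc2, the fast calcium-binding troponin subunit, was at 3.76 and 2.33 FPKM in YFP, at 31.8 FPKM in DEK replicate 1 and at 9.60 FPKM in DEK replicate 2 (adjusted p = 0.0577). Myl1, the fast essential light chain, was found at 5.67 and 5.37 FPKM with YFP against 13.2 and 3.93 with DEK. DEK replicate 1 was thus the library with the most of these 3 fast-fibre transcripts and the least Actc1, Tnnt2, Myh8 and Myl4. It was also the library with more Dek, and the summed level of 10 immediate early and stress genes was 13842 FPKM in it, 3272 FPKM in DEK replicate 2, and 484 and 409 FPKM in YFP; the part of these in the differences between the DEK libraries was not tested.

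**Figure D4:**
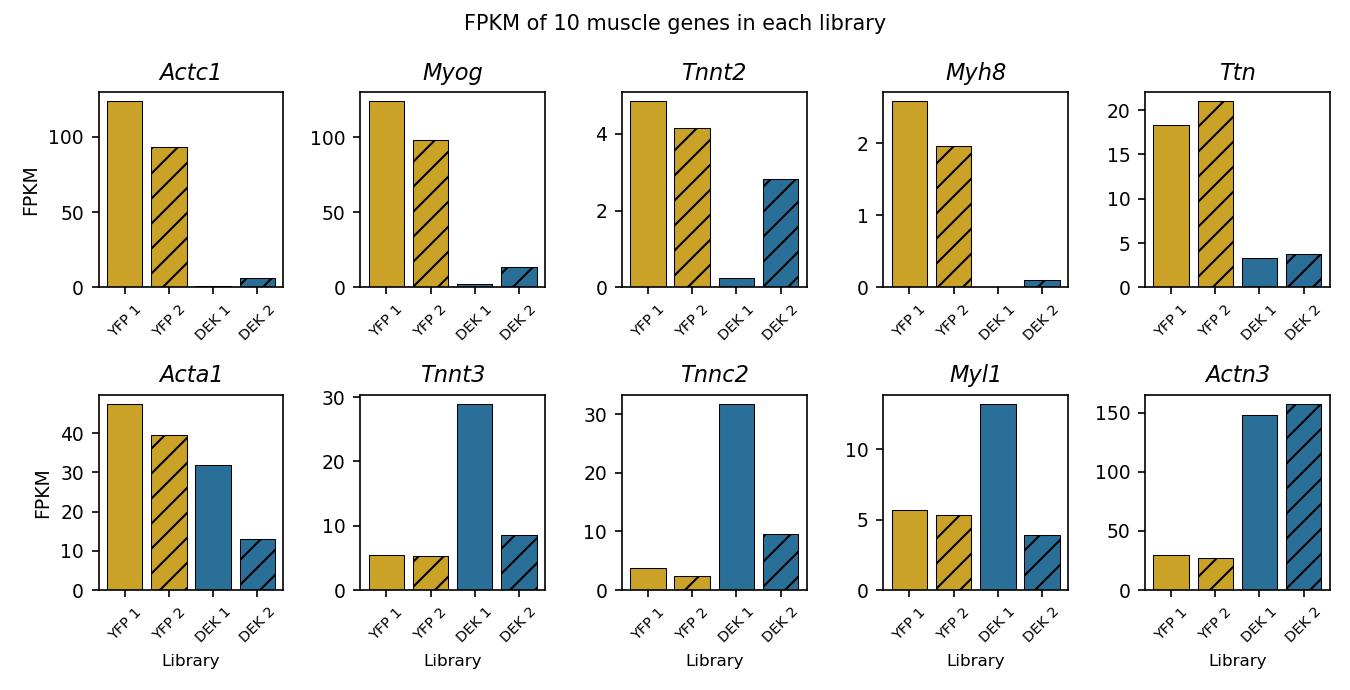
FPKM of 10 muscle genes in each library, 1 bar per library, with YFP in yellow and DEK in blue and replicate 2 hatched; each panel has its own axis from 0. Actc1, Myog and Tnnt2 are lowest in DEK replicate 1, Tnnt3, Tnnc2 and Myl1 are highest there, and Actn3 and Ttn are alike in both DEK libraries.

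Among the regulators of muscle genes, Myog had the pattern closest to Actc1. Of 9083 tested genes with a group mean of at least 5 FPKM, the 3 at the smallest Euclidean distance from Actc1 in log2 values over the 4 libraries, each centred on its own mean, were Myog (distance 0.876), the myoblast fusion gene Tmem8c (1.05) and the hormone-like Pthlh (1.24). Myog was found at 124 and 98.3 FPKM with YFP against 2.44 and 13.7 with DEK, with the same order of libraries as Actc1. The ratio of Actc1 to Myog in FPKM was 0.997 and 0.947 in YFP and 0.477 and 0.439 in DEK. Of 13 muscle transcription factor genes 12 reached the filter, and Myog alone was called by limma (adjusted p = 0.0242; 0.115 and 0.144 on leaving out YFP replicates 1 and 2, and 0.0798 on leaving out DEK replicate 1, over the same genes; 0.00307 for the last with the low filter on the remaining libraries). The upstream factor Myod1 was found at 153 and 128 FPKM with YFP against 103 and 99.3 with DEK (adjusted p = 0.108), and Mef2a, a partner of the myogenic factors, was at 7.89 and 7.14 FPKM with YFP against 14.8 and 12.6 with DEK (adjusted p = 0.0532).

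By the same measure the profiles nearest to Acta1 were those of the signalling regulator Rgs16 (distance 0.168), Mycn (0.285) and Sirt1 (0.327), each of which was also lowest in DEK replicate 2. Nearest to Myl4 were Pagr1a (0.0237), the TGF-beta pathway inhibitor Smad7 (0.0417) and Ngrn (0.0462). Nearest to Mylk2 were Zer1 (0.0376), the ribosomal protein gene Rpsa (0.0488) and Dcun1d3 (0.0495). With 4 libraries such nearness rests on few values.

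Mybph and Myog lie next to each other on mouse chromosome 1, with Adora1, an adenosine receptor gene, overlapping Mybph, per RefSeq's GRCm38.p6 gene order. These neighbours are given for their position and were chosen after their values were seen. Adora1 was found at 5.18 and 3.77 FPKM with YFP against 1.06 and 1.04 with DEK, and it fell by limma (log2 fold change -1.41, SE 0.22, adjusted p = 0.0243). For Adora1 no omission of a library kept the call under either low filter, with adjusted p = 0.0920 and 0.0853 on leaving out YFP replicates 1 and 2, and 0.175 and 0.121 on leaving out DEK replicates 1 and 2 over the same genes. Ppfia4, the gene beyond Myog, was found at 2.09 and 2.08 FPKM with YFP against 0.377 and 0.787 with DEK (adjusted p = 0.0594), while Chil1 on the side away from Myog was found at 0.619 and 0.173 FPKM with YFP against 0.623 and 1.58 with DEK. Both DEK values were below both YFP values for Mybph, Adora1, Myog and Ppfia4, as for 21.4% of all genes with a value above 0. The same was seen beside other members, among others in Ccsap near Acta1, Adprm and Myh1 near Myh3, Phlda3 near Tnni1, and Bcl2l1 and Tpx2 near Mylk2. Other neighbours went the other way, such as Aqr near Actc1, Abcb10 near Acta1 and Mapt near Myl4. Whether reads of the overlapping genes were told apart is not stated, so the low Mybph values are uncertain beside Adora1. Tnni1 and Tnnt2 are likewise near each other on chromosome 1, with Lad1 between them, and Lad1 was at 0 in 3 libraries and at 0.0910 FPKM in DEK replicate 2.

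Markers of some other cells moved with the groups. The summed level of 12 endothelial markers was 68.1 and 72.0 FPKM in YFP and 195 and 164 FPKM in DEK, and that of 11 macrophage markers was 3.69 and 20.3 FPKM in YFP and 99.7 and 124 FPKM in DEK. Of the endothelial sums Tek alone gave 55.9 and 56.7 FPKM in YFP and 78.8 and 66.5 FPKM in DEK. Of the macrophage sums Lyz2 alone gave 0.200 and 15.2 FPKM in YFP and 73.4 and 100 FPKM in DEK. By limma 10 endothelial and 4 macrophage markers were called higher, but each of these was under 1 FPKM in both YFP libraries and reached the filter through DEK alone, so they had to differ and the counts are no measure of the lists. The endothelial markers Kdr, Flt1 and Ptprb and the complement genes C1qa, C1qb and C1qc were at 0 in both YFP libraries. The summed level of 12 smooth muscle and pericyte markers overlapped between groups, at 730 and 723 FPKM in YFP and 601 and 900 FPKM in DEK. Of these sums Notch3 alone gave 401 and 441 FPKM in YFP and 337 and 542 FPKM in DEK. Of the 10 tested, 2 were called higher by limma (Rgs5 and Myh11) and 0 lower, with a median log2 fold change of 0.56. Both DEK values were the higher ones in 7 of the 10, against 34% of tested genes, and the lower ones in 2. Myh11 and Cnn1 were tested through DEK alone. The summed level of 7 erythroid genes was 8.04 and 0.519 FPKM in YFP and 39.3 and 357 FPKM in DEK. Of 8 fibro-adipogenic markers 2 fell and 4 rose, 1 of them (Mfap5) tested through DEK alone. Their summed level overlapped between groups, at 1179 and 932 FPKM in YFP and 981 and 1104 FPKM in DEK. Of 12 nonmuscle actomyosin genes 1 fell and 2 rose, with a median log2 fold change of 0.34. The sum over 12 cell cycle genes was 102 and 93.5 FPKM in YFP and 34.1 and 41.5 FPKM in DEK, and 6 of the 12 fell. Over all tested genes 3.21% fell and 4.57% rose. Fewer cell cycle genes were called with any library left out over the same genes. The log2 fold change was negative in 11 of the 12, the exception being Pcna (0.67). The part of these cells and of cycling cells in the lower Actc1, Myh8 and Myl4 was not tested, and in such bulk libraries fewer cells that make a transcript cannot be told apart from less transcript per cell.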

How the data were processed

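The submitters' processing notes name build mm9 and, as tools, STAR (2.5.3a), StringTie (1.3.3) and R (3.4.1); annotation, settings and filters are not given in the sources used here. Per the labels' protocols, the cells were fixed before sorting, and a low-input kit amplified their cDNA. The deposited values are read as FPKM made by the authors, a unit inferred from the numbers, which are not whole and sum to different totals. All 4 columns were used. Depth is unknown because there are no counts, and steps of whole reads were not found, so no counting intervals are given.

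limma 3.58.1 (R 4.3.3) was fitted to log2(FPKM + 1) of the 12179 genes that reached 1 FPKM in 2 or more libraries. DEK was set against YFP, two-sided, with a variance trend, no covariates and Benjamini-Hochberg adjustment over all tested genes; calls needed an adjusted p under 0.05. The added 1 makes folds of weakly expressed genes too small. The labels do not say that replicates are separate animals, so p-values measure the spread between libraries. TMM factors (trimmed mean of M values) were computed from the FPKM values, and the fit was tested on simulated data. The members and gene lists were chosen with earlier results of these data known, from general knowledge. Named genes were the members and their paralogs, up to 4 genes of each list with the smallest p, Dek, Myog, Rn45s and the 3 nearest profiles of each member with a group mean of at least 5 FPKM. Chromosomal neighbours, overlapping genes and the markers listed at 0 fall outside this rule and were chosen after their values were seen. Alternatives were each library left out (with the low filter over all or over the remaining 3 libraries), the replicate number as a block, added values of 0.1 and 5, 2 other filters, 3 other scalings, 2 other variance models and 2 other thresholds.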

Additional observations from a re-analysis of the deposited data

How the results depend on the processing

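The direction of all 6 tested members held in each of the 104 values computed under the alternatives. Each had both DEK values below both YFP values, so only the 3 other scalings could have reversed it. The direction of Myh8 was also fixed by the low filter of the main fit. The count of 3 members that fell was 2 to 4 under the replicate block, other added values, 5 FPKM, other scalings, other variance models and other thresholds, and 0 rose throughout by limma. It was 1 with no low filter, where Actc1 had an adjusted p of 0.0594 and only Myh8 was called. With a library left out it ran from 0 to 3: with the low filter over the remaining 3 libraries it was 0 without YFP replicate 1 or 2, 2 without DEK replicate 1 and 3 without DEK replicate 2. The lone library of a group is then taken to vary like the other group. In those settings Actc1 and Acta1 (adjusted p = 0.0151) passed without DEK replicate 1, and Actc1, Myh8 (0.0477) and Tnnt2 (0.0160) without DEK replicate 2, and Mylk2 passed by quantile normalization (0.0499). The median log2 fold change of the tested members was -1.63 and -0.61 with added values of 0.1 and 5, -1.04 with no low filter, -0.98 at 5 FPKM and -1.32 with Rn45s removed, and -1.37 to -1.07 with a library left out (-0.91 without YFP replicate 1 with the low filter over the remaining libraries). Removing Rn45s moved the median of all genes from 0.05 to -0.07, and relative to it the members stood at -1.25, against -1.23 before. Over the 18 alternatives the adjusted p ran from 0.000115 to 0.0882 for Actc1 and from 0.0330 to 0.229 for Myl4, and over 15 from 0.0115 to 0.133 for Myh8. Deviations from the group mean had r = 0.0635 across genes between YFP replicate 1 and DEK replicate 1. With 2 libraries per group this is the only free value, so it cannot decide whether the numbers pair the libraries. With the replicate number as a block 2 members fell by limma, at adjusted p = 0.0139 for Actc1 and 0.0326 for Myh8. In that fit 618 genes were called against 948. For the paralog shares the direction held under the 6 alternatives tried for each, except for Tnni1. Leaving out a library could not reverse it in the other groups, whose libraries did not overlap. The Tnni1 share moved from -10.7 percentage points (DEK minus YFP) to 19.7 without YFP replicate 1 and -41.1 without YFP replicate 2. The causes of these changes were not tested.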
